A study of Mus musculus with 6 samples.

Results

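Genes that airway and other lung epithelial cells use to build their keratin cytoskeleton, with the gene of the basal cell factor p63, were compared between lungs of Scnn1b-Transgenic (Scnn1b-Tg) mice and of wild-type mice. The 10 genes, Krt4, Krt5, Krt7, Krt8, Krt13, Krt14, Krt15, Krt18, Krt19 and Trp63, were taken by symbol, and all 10 were among the 19935 genes measured, each by 1 probe set with that symbol alone. RNA came from whole lung of 3 Scnn1b-Tg and 3 wild-type samples, both on the C57BL/6 background, and each sample was hybridised to an Affymetrix expression array. Scnn1b is the gene of the β chain of ENaC, the sodium channel of airway epithelium, and the stated aim of the series was to search for candidate genes of emphysema, the destruction of alveolar walls. In the Scnn1b-Tg line in general use the transgene is driven by a club cell promoter, which makes airway secretory cells take up too much sodium and leaves a dehydrated, mucus-obstructed airway surface. The promoter, and the age and sex of the mice, are not given in the labels used here. Whether each sample was a different mouse is not stated, so the p-values speak only for the spread among the arrays, which may be partly technical.

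Keratins are the intermediate filament proteins of epithelial cells, and each filament is built from pairs of an acidic (type I) and a basic (type II) keratin. Krt8 (type II) with Krt18 (type I), and Krt7 (type II) with Krt19 (type I), are the keratins of simple epithelia, including airway luminal cells, alveolar epithelium and the mesothelium that covers the lung. Krt5 (type II) with Krt14 or Krt15 (type I) mark basal cells, the stem cells that in mice line mainly the trachea and the largest airways, where p63 maintains them. Krt4 (type II) with Krt13 (type I) are keratins of stratified mucosa, such as the oesophagus, and of the stratified hillocks described in mouse trachea.

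Promoter windows are shown for keratins of simple, basal and mucosal epithelium, the 3 roles under which the values below are given. The sequences are the 250 bases before the RefSeq start of the gene (GRCm38.p6), read 5′ to 3′ on the gene's strand, and are given for the 5 members with a window at that start. Capitals mark matches on either strand to GGGCGG (GC box), TGANTCA (AP-1-like) or the half-site of the p53 family, to which p63 belongs. In TGANTCA any base may stand at N.
Krt7, chr15:101412153-101412402, plus strand: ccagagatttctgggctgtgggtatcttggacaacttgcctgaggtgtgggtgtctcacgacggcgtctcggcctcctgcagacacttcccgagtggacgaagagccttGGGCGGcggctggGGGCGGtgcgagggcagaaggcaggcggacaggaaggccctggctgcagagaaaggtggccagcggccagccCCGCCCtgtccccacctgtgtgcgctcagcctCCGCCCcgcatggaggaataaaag
Krt8, chr15:102004343-102004592, minus strand: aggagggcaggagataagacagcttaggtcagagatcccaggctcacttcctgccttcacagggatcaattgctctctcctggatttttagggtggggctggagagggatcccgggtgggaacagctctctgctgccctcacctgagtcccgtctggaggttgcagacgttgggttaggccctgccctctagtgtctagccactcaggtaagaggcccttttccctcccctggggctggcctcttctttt
Krt18, chr15:102027966-102028215, plus strand: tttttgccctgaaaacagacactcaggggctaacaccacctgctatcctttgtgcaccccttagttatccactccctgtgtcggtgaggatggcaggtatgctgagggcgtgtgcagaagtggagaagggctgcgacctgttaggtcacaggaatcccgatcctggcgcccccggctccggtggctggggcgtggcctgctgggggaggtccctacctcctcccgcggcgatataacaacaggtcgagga
Krt5, chr15:101712906-101713155, minus strand: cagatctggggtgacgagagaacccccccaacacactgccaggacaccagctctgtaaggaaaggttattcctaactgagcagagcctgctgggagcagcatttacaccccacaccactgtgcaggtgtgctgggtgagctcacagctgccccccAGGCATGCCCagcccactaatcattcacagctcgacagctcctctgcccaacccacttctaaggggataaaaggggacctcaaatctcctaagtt
Krt13, chr11:100121567-100121816, minus strand: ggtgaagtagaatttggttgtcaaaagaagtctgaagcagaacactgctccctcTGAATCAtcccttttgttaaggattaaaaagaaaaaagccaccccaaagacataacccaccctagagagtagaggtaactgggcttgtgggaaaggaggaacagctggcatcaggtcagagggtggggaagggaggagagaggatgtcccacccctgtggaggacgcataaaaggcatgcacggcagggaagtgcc
The Krt7 window held 4 GC boxes and no other match. The Krt5 window held 1 p53-family half-site, 95 bases before the start. The Krt13 window shown held 1 match to TGANTCA, with the letters TGAATCA, 196 bases before the start. A further Krt13 window, at another start and not shown, held 2 matches, both TGACTCA, 183 and 34 bases before that start. The Krt8 and Krt18 windows held none of these motifs. No window held TATAAA, the only form of the TATA box that was searched for. Among 32851 windows of all genes, other starts included, 32.7% held a GC box, 6.75% TGANTCA, 7.13% a p53-family half-site and 12.4% TATAAA. No match overlapped another in the 5 windows shown. The G and C content was 66% for Krt7, 60.4% for Krt18, 58% for Krt8, 56% for Krt5 and 50.4% for Krt13, with a median of 52.4% over all windows. CpG dinucleotides numbered 16 for Krt7, 12 for Krt18 and 3 for Krt8, and 2 each for Krt5 and Krt13, with a median of 6. A match describes the letters and shows no binding.

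Scnn1b, the gene of the transgene, was measured first as a check of the labels, with a mean intensity of 1422 ± 98.3 in Scnn1b-Tg and 139.7 ± 31.9 in wild type lung (SD, n = 3 each). It was the only gene called by limma at an adjusted p under 0.05 (adjusted p = 0.00241), or 0.00502% of genes tested, and it missed that threshold without wild type replicate 3 (adjusted p = 0.0559). Array medians ran from 47.6 to 48.5 and the lowest values from 18.3 to 18.6. On the first 2 principal components (34.0% and 22.6% of the variance) wild type replicate 2 stood apart on the first and Scnn1b-Tg replicate 3 on the second. Markers of alveolar type 2 cells, which define lung, were bright on every array, with summed intensities over 10 genes of 19723 to 20864 in Scnn1b-Tg and 18988 to 21196 in wild type.

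None of the 10 genes differed between genotypes by the test across all genes. With limma 0 of 10 were called, their adjusted p-values ran from 0.906 to 0.995, and 0 of 10 had an unadjusted p under 0.05, where 6.01% of all genes did. The groups overlapped for all 10, while in the whole set 6.26% of genes had every Scnn1b-Tg array above every wild-type array and 4.41% had every one below. Of the 10, 7 had a log2 fold change (Scnn1b-Tg over wild type) above 0 and 3 below 0, with a median of 0.036, beside 53.2% above 0 and a median of 0.0052 over all genes. The 95% confidence interval of the fold change, which is not adjusted for the number of genes, lay within 1.5-fold in either direction for all 10, as it did for 98.4% of all genes. In whole-lung RNA, fewer cells of a type and less RNA per cell cannot be told apart, and basal cells are a small share of mouse lung.

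**Figure D1:**
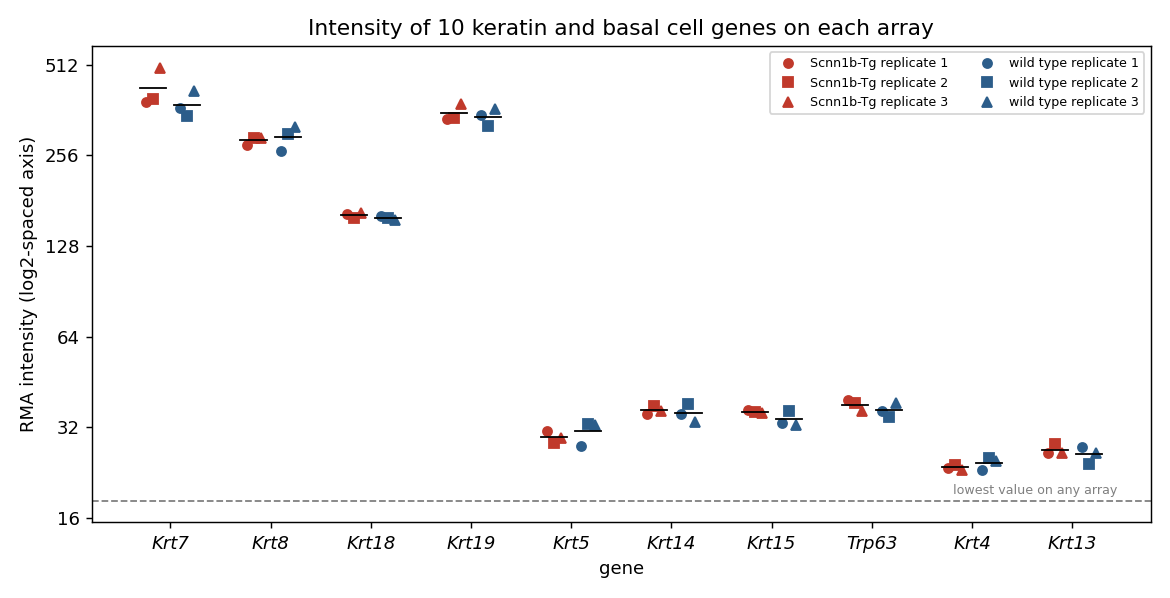
RMA intensity (log2-spaced axis) of each gene on each array, with Scnn1b-Tg in red left of wild type in blue, marker shape for the replicate number and a black line at the group mean. The 4 simple keratins lie between 156 and 500.4, the other 6 genes between 23.1 and 39.6, close to the lowest value on any array (18.3, dashed), and the groups overlap for every gene.

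The simple epithelial keratins were bright on every array. Krt8, the main type II keratin of simple epithelium, had intensities of 278, 293 and 293 on the 3 Scnn1b-Tg arrays, against 265, 302 and 318 on the 3 wild-type arrays. The Scnn1b-Tg values lay inside the wild-type range. Its mean was 288 ± 8.68 in Scnn1b-Tg and 295 ± 26.7 in wild type (SD, n = 3 each), a log2 fold change of -0.031 ± 0.072 (SE), with an interval from 0.870 to 1.10 times wild type.

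Krt18, the type I partner of Krt8, had intensities of 163, 159 and 164 in Scnn1b-Tg, against 161, 159 and 156 in wild type. It was the steadiest of the 10 genes, with all 6 arrays within 5.38% of each other, and 5.96% of all genes had a smaller SD within genotypes on the log2 scale. The log2 fold change was 0.030 ± 0.042 (SE), and the interval ran from 0.954 to 1.09 times wild type, the narrowest among the 10.

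Krt19, a type I keratin of luminal airway cells and mesothelium that lacks most of the usual tail domain, had intensities of 338, 339.8 and 379.7 in Scnn1b-Tg, against 348, 320.0 and 364 in wild type. Replicate 3 was the highest array of each genotype. The genotypes differed by a log2 fold change of 0.036 ± 0.070 (SE), with an interval from 0.915 to 1.15 times wild type.

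Krt7, a type II keratin of simple and glandular epithelium, had the largest log2 fold change of the 10 and the largest spread. Its intensities were 386, 394 and 500.4 in Scnn1b-Tg, against 368, 346 and 417 in wild type, so that Scnn1b-Tg replicate 3 was highest and wild type replicate 3 lay above the other Scnn1b-Tg arrays. The mean was 427 ± 63.9 in Scnn1b-Tg and 377 ± 36.6 in wild type (SD, n = 3 each), a log2 fold change of 0.17 ± 0.12 (SE) with a limma adjusted p of 0.916 and an interval from 0.932 to 1.36 times wild type. Without Scnn1b-Tg replicate 3 the log2 fold change was 0.053, and without that array and wild type replicate 2, which was the lowest, it was -0.0078.

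Krt7 alone among the 10 spanned at least 0.5 on the log2 scale over the 6 arrays (0.53), and 93.9% of all genes had a smaller SD within genotypes. The genes nearest to its pattern, by root mean square difference of mean-centred log2 values over 6 arrays, were Rnf10, a ubiquitin ligase gene (0.025), Tmem109, a membrane protein gene (0.033), and Dhx37, an RNA helicase gene (0.036). Rnf10 had intensities of 369, 392.3 and 491 in Scnn1b-Tg, against 362, 350.5 and 414 in wild type. Markers of mesothelium, which also uses Krt7, had their highest mean deviation on the same array. Over 8 genes it was 0.12 on Scnn1b-Tg replicate 3, between -0.033 and 0.0075 on the other Scnn1b-Tg arrays and between -0.054 and -0.015 in wild type. Their summed intensity was instead highest on Scnn1b-Tg replicate 1 (1099), with 1020.4 and 1093 on the other Scnn1b-Tg arrays and 1004 to 1078 in wild type. Of the 8 markers 5 had a log2 fold change above 0, and their part in the Krt7 values was not tested.

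**Figure D2:**
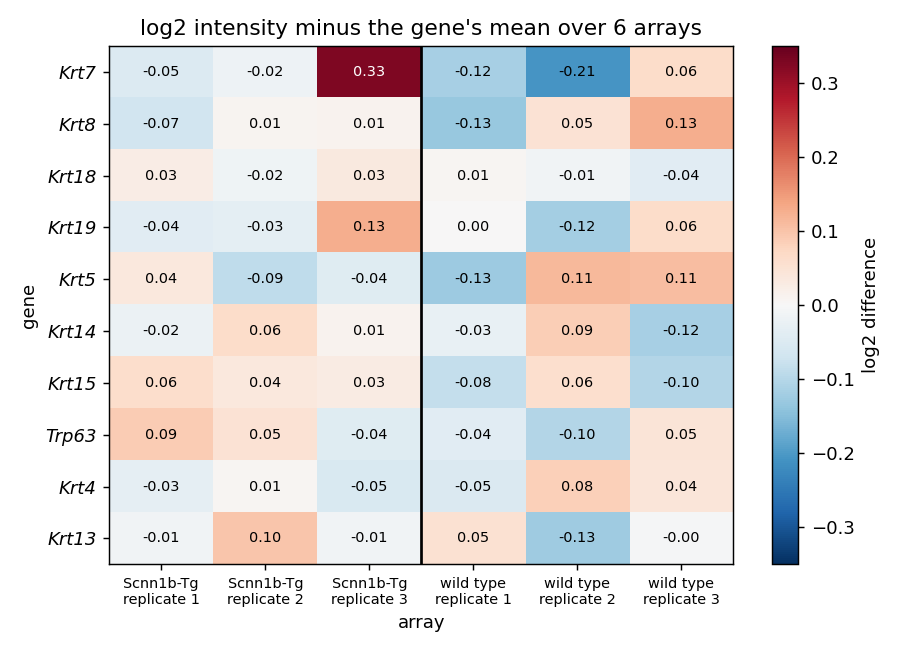
Log2 intensity minus the gene's mean over 6 arrays (colour and printed value), with genes in rows and arrays in columns, Scnn1b-Tg left of wild type. Krt7 on Scnn1b-Tg replicate 3 (0.33) and on wild type replicate 2 (-0.21) are the values farthest from 0, and no gene has 1 sign on all Scnn1b-Tg arrays and the other on all wild-type arrays.

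The basal cell genes were dim on every array. Krt5, the type II keratin that defines basal cells, had intensities of 31.1, 28.5 and 29.4 in Scnn1b-Tg, against 27.7, 32.7 and 32.6 in wild type. Wild type replicate 1 lay below all Scnn1b-Tg arrays and the other wild-type arrays lay above them. The mean was 29.7 ± 1.30 in Scnn1b-Tg and 31.0 ± 2.86 in wild type (SD, n = 3 each), giving a log2 fold change of -0.063 ± 0.076 (SE) and an interval from 0.845 to 1.08 times wild type.

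Krt14, the type I partner of Krt5, had intensities of 35.6, 37.7 and 36.4 in Scnn1b-Tg, against 35.4, 38.3 and 33.3 in wild type. The Scnn1b-Tg arrays lay within the wild-type range, and the log2 fold change was 0.037 ± 0.061 (SE). Krt15, a further type I keratin of basal cells, had intensities of 36.5, 35.9 and 35.7 in Scnn1b-Tg, against 33.0, 36.4 and 32.6 in wild type. Of the wild-type arrays only replicate 2 reached the Scnn1b-Tg range. Krt15 had the smallest p of the 10 genes, with a log2 fold change of 0.085 ± 0.055 (SE), a limma adjusted p of 0.906 and an interval from 0.970 to 1.16 times wild type.

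Trp63, the gene of the transcription factor p63, had intensities of 39.6, 38.6 and 36.2 in Scnn1b-Tg, against 36.2, 34.7 and 38.4 in wild type. Scnn1b-Tg replicate 3 lay just below wild type replicate 1 and wild type replicate 3 was close to the higher Scnn1b-Tg arrays. Between genotypes this made a log2 fold change of 0.064 ± 0.058 (SE), with an interval from 0.9505 to 1.15 times wild type. It was read by 1 probe set, so the long and the N-terminally truncated p63 isoforms were not separated.

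The keratins of stratified mucosa were the dimmest of the 10. Krt4, their type II keratin, had intensities of 23.5, 24.1 and 23.1 in Scnn1b-Tg, against 23.2, 25.4 and 24.7 in wild type, with a log2 fold change of -0.051 ± 0.050 (SE). Krt13, its type I partner, had intensities of 26.3, 28.3 and 26.3 in Scnn1b-Tg, against 27.5, 24.3 and 26.4 in wild type, with a log2 fold change of 0.050 ± 0.062 (SE). The log2 fold changes of the partners had opposite signs, and neither set of arrays was separate.

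Probe sets bind with different strength, so intensities were not read as amounts between genes, and closeness to the lowest values only shows what the array could measure. Of all genes 13.9% were dimmer than Krt4, 19.4% than Krt13, 26.3% than Krt5, 32.7% than Krt15, 34.0% than Krt14 and 35.4% than Trp63, against 82.9% for Krt18 and 93.2% to 96.1% for Krt8, Krt19 and Krt7. Because a constant near the lowest value would hide changes of dim genes, the fit was repeated with 16 subtracted from every intensity. The means left for Krt4 were then 7.57 ± 0.498 in Scnn1b-Tg and 8.42 ± 1.14 in wild type (SD, n = 3 each), and its log2 fold change was -0.15 ± 0.12 (SE). For Krt5 the log2 fold change was -0.12 ± 0.14 with an interval from 0.736 to 1.14 times wild type, and for Krt15 it was 0.16 ± 0.10 with an interval from 0.953 to 1.31. After subtraction the intervals of 10 of the 10 genes lay within 1.5-fold in either direction, as for 95.3% of all genes. Whether the dim probe sets carried specific signal could not be read from these values, so these intervals bound the change of the deposited intensity and not that of a transcript.

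**Figure D3:**
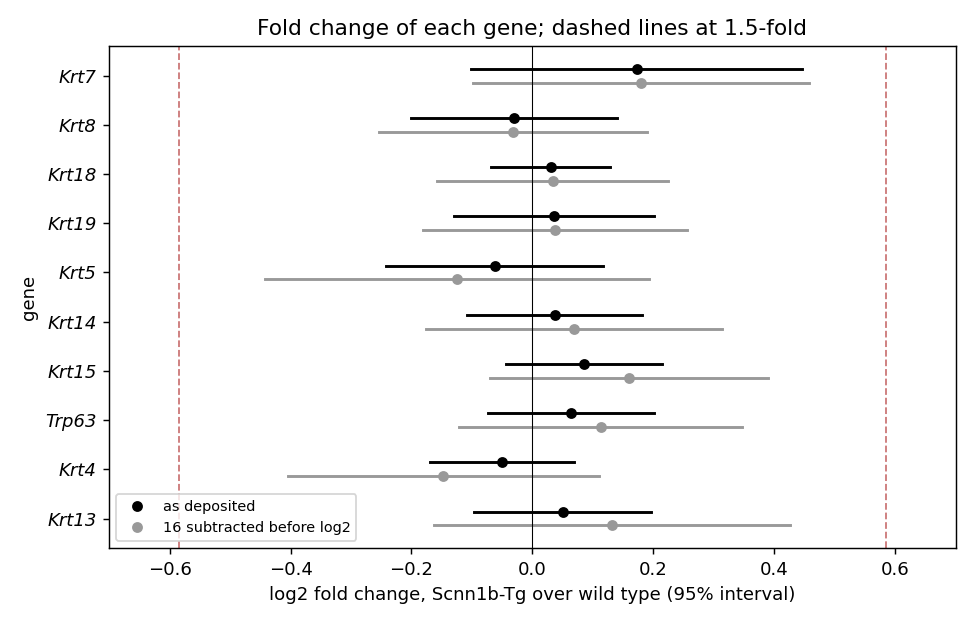
Log2 fold change of each gene, Scnn1b-Tg over wild type, as a point with its 95% interval, from the intensities as deposited (black) and after 16 was subtracted before log2 (grey). All intervals contain 0 and lie between the dashed lines at 1.5-fold, with the upper bound of Krt7 reaching 1.36 and 1.37 times wild type.

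Among the 43 other keratins measured, hair and skin keratins included, 21 had log2 fold changes above 0 and 22 below (median -0.0075). Limma called 0 of them, and 1 had an unadjusted p under 0.05, beside 6.01% of all genes. Of these keratins 31 were among the 6645 dimmest of all genes. Krt80, a type II keratin of several epithelia, had the highest log2 fold change, with intensities of 123, 122 and 146 in Scnn1b-Tg, against 107, 107 and 108 in wild type. All Scnn1b-Tg arrays lay above all wild-type arrays, as for 2 of these 43 keratins (4.65%) and 6.26% of all genes. Its log2 fold change was 0.27 ± 0.07 (SE), with a limma adjusted p of 0.571, and it was 0.19 without Scnn1b-Tg replicate 3. Krt79, a type II keratin known from hair follicle and gland ducts, had the lowest, at -0.14 ± 0.10, and leaving out Scnn1b-Tg replicate 1 or 3 gave -0.039 or -0.24, leaving out wild type replicate 3 -0.089. Keratin genes share sequence, and cross-hybridisation between them was not tested.

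Of the other basal cell genes 17 of 18 were measured, 9 with log2 fold changes above 0 and 8 below, and a median of 0.0094. By limma 0 were called (0 at an unadjusted p under 0.05). Their mean intensities ran from 28.0 to 692, against 30.3 for Krt5, and which lung cells gave their signal was not tested. Lamb3, a chain of the laminin under basal cells, was highest at 0.17 ± 0.07 (SE) and Cdh3, P-cadherin, lowest at -0.089 ± 0.064. Lamb3 was 0.098 without wild type replicate 2, and Cdh3 was -0.026 without wild type replicate 3. Of squamous and cornification genes, 6 of the 18 measured had log2 fold changes above 0 and 12 below, with a median of -0.017. By limma 0 of the 18 were called, and 2 had an unadjusted p under 0.05, beside 6.01% of all genes. Every Scnn1b-Tg array lay above every wild-type array for 2 (11.1%) and below for 1 (5.56%), beside 6.26% and 4.41% of all genes. Sprr1a, a precursor of the cornified envelope, gave 0.16 ± 0.06, and Scel, sciellin of that envelope, gave -0.19 ± 0.14, which was -0.024 without wild type replicate 2. Leaving out wild type replicate 1 gave -0.31 for Scel.

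Keratin filaments end on desmosomes, hemidesmosomes and plakin linkers. Of 18 measured genes of these anchors 9 had log2 fold changes above 0 and 9 below, with a median of 0.00046. Limma called 0 of the 18, and 1 had an unadjusted p under 0.05, beside 6.01% of all genes. Plec, the linker plectin, was highest at 0.22 ± 0.08 (SE), and Evpl, envoplakin, lowest at -0.055 ± 0.056. Plec was 0.14 without wild type replicate 2, and Evpl lay between -0.093 (Scnn1b-Tg replicate 1 left out) and -0.022 (wild type replicate 2 left out). Among 8 genes of the hillock state other than keratins 6 had log2 fold changes above 0, with a median of 0.11. Limma called 0 of the 8, and 1 had an unadjusted p under 0.05, beside 6.01% of all genes. The highest was Lgals3, galectin-3, which macrophages also express, at 0.48 ± 0.08 with a limma adjusted p of 0.205, and the lowest was Anxa1 at -0.13 ± 0.10. Anxa1 lay between -0.22 (Scnn1b-Tg replicate 1 left out) and -0.046 (Scnn1b-Tg replicate 3 left out). The mean deviation of the hillock genes ran from 0.013 to 0.10 in Scnn1b-Tg and from -0.076 to -0.047 in wild type. The groups did not overlap for this mean, which was not set against means of other genes. The summed intensity of the 8 genes did overlap, at 2922 to 3046 in Scnn1b-Tg and 2803 to 3148 in wild type. Of the 8 genes 1 (12.5%) had all Scnn1b-Tg arrays above wild type, beside 6.26% of all genes. None had all below, beside 4.41%. The 8 genes had mean intensities from 60.4 to 1439, against 24.0 for Krt4 and 26.5 for Krt13, and which cells gave their signal was not tested.

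Genes shared by epithelial cells gave 11 log2 fold changes above 0 and 6 below among 17 measured, with a median of 0.045. Of the 17 genes 0 were called by limma, and 3 had an unadjusted p under 0.05, beside 6.01% of all genes. Every Scnn1b-Tg array lay above every wild-type array for 2 (11.8%) and below for 2 (11.8%), beside 6.26% and 4.41% of all genes. Elf3, an epithelial transcription factor, gave 0.16 ± 0.05 (SE), and Ocln, the tight junction protein occludin, gave -0.17 ± 0.05. In the 11 measured club cell genes 1 log2 fold change was above 0 and 10 were below, while 53.2% of all genes lay above 0. The values ran from Scgb3a1 at 0.053 ± 0.20 to Gsta3 at -0.65 ± 0.20, with a median of -0.23. Of these club cell genes 0 were called by limma, and 5 had an unadjusted p under 0.05, beside 6.01% of all genes. Their mean deviation ran from -0.19 to -0.044 in Scnn1b-Tg and from -0.069 to 0.29 in wild type, so that the groups overlapped for this mean. Their summed intensity did not overlap, at 11929 to 12738 in Scnn1b-Tg and 13199.5 to 16457 in wild type. For 4 of the 11 genes (36.4%) every Scnn1b-Tg array lay below every wild-type array, beside 4.41% of all genes. Without wild type replicate 2 Gsta3 was -0.41, and Scgb3a1 was 0.28 there but -0.16 with wild type replicate 1 left out. The difference between the club cell genes and the keratins was not tested.

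**Figure D4:**
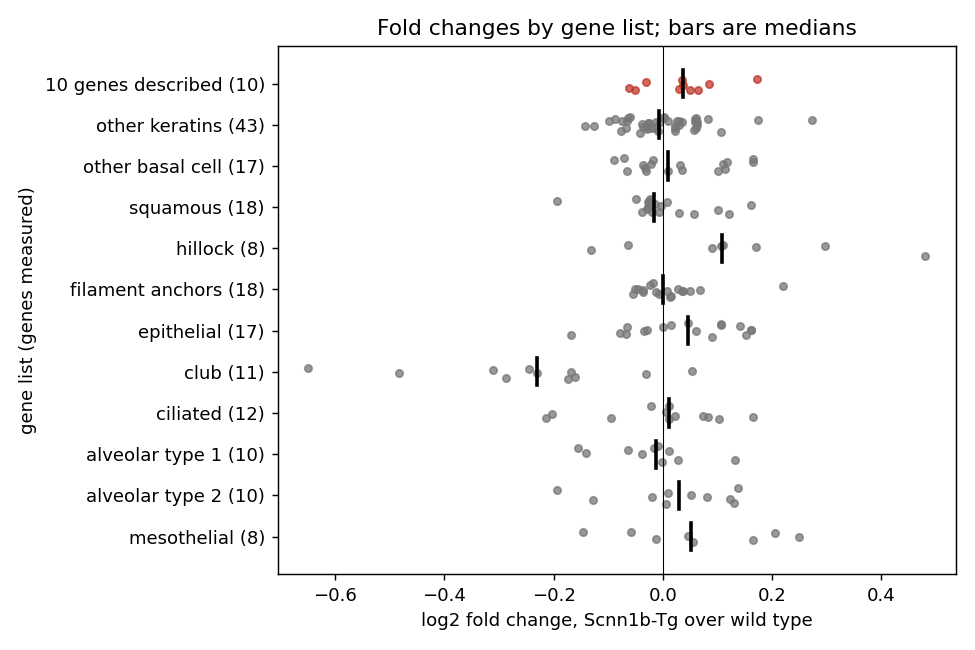
Log2 fold changes, Scnn1b-Tg over wild type, of the genes of each list (points, spread vertically for legibility), with the median as a bar and the 10 genes described in red. Most medians lie between -0.017 and 0.051, with hillock genes at 0.11 and club cell genes at -0.23, and some genes stand on more than 1 list.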

How the data were processed

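The deposited intensities, 1 per probe set and sample, were made by the authors with RMA (named in the submitters' processing notes; no version is given in the sources used here). Total RNA was extracted with Trizol and labelled by a whole-transcript sense method, per the labels' protocols. The values have a linear scale, as read from their range. Of 28815 probe sets 21780 had exactly 1 symbol in the platform annotation, and the brightest per gene was kept (19935 genes). On the log2 scale they were tested by limma 3.58.1 under R 4.3.3 (lmFit, then eBayes; genotype as the only term, two-sided, Benjamini-Hochberg over all genes, 4 residual degrees of freedom and 6.99 after moderation). The number of arrays limits the precision, and the labels give no batch. The code of the fit was checked on values simulated from limma's own variance model, which cannot show how well that model holds for these arrays.

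The members, lists and alternatives were chosen with earlier results of these data known. Genes named besides the 10 members and Scnn1b are the highest and lowest log2 fold change of each list, any gene called, and the 3 nearest patterns of a member spanning 0.5 or more on the log2 scale. A comparison of member proteins was planned and not made, since no protein table was used here. Promoter windows came from RefSeq (GRCm38.p6), and 6 of 10 members had one. Alternatives were quantile normalization, median centring, the 6645 dimmest genes left out, the mean over probe sets or all probe sets, robust variances with a trend on intensity, array weights, a replicate block, 16 subtracted, and each array left out. Leaving out both arrays that stood apart was added after seeing the data.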

Additional observations from a re-analysis of the deposited data

How the results depend on the processing

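Under 15 alternatives fitted over all genes and 1 over all probe sets, which gave 156 values for the 10 members, 0 were called by limma. The lowest adjusted p was 0.579. Each member had 1 probe set, so its log2 fold change could not change with the mean over probe sets or all probe sets. Nor could it with the dimmest genes left out, the trend on intensity or the replicate block. In all these settings only the SE and the adjusted p could move. Krt4, Krt5, Krt13 and Krt15 are among the 6645 dimmest genes and had no value where these were left out. The sign turned for 5 of 10 members, none of them called. Over single arrays left out, Krt8 ran from -0.10 to 0.025, Krt13 from -0.000256 to 0.089, Krt14 from -0.012 to 0.089 and Krt19 from -0.019 to 0.077, and of the other genes named Scgb3a1 from -0.16 to 0.28. Krt19 was -0.012 with array weights. With wild type replicate 2 and Scnn1b-Tg replicate 3 both left out, chosen after seeing the data, Krt7 was -0.0078, Krt19 -0.070 and Lamp3, a type 2 cell gene, 0.0064. The median of the members ran from 0.0050 to 0.053 over all alternatives. The count of genes called among all tested was 39 without the 6645 dimmest genes, 36 with robust variances and a trend on intensity, 23 with 16 subtracted, 6 without both arrays, and 0 to 5 over single arrays left out. With the replicate block it was 3. Arrays of the same number had correlations of 0.026, 0.028 and 0.039 across genes, and those of different numbers ran lower, from -0.063 to 0.024. These small values do not settle whether the numbers pair the samples. The block gave Krt7 a log2 fold change of 0.17 ± 0.059 (SE), and it called 0 of the 10 members. Members with separate groups numbered 0 to 3 over single arrays left out, where 18.2% to 24.3% of all genes were separate, and 4 without both arrays, where 35.8% were. For the dim members, the distance from the lowest values limits what can be seen.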

Other observations

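Thymic epithelium shares Krt5, Krt14, Krt8 and Trp63, and the summed intensity of 10 thymic markers was 376 to 389.9 in Scnn1b-Tg and 393 to 396 in wild type. Cd1d1, with a mean of 80.0 ± 4.61 in Scnn1b-Tg and 93.3 ± 7.31 in wild type (SD, n = 3 each), is the brightest of them, and their mean deviation overlapped, at -0.020 to 0.010 in Scnn1b-Tg and -0.0053 to 0.019 in wild type. Of these 4 had log2 fold changes above 0 and 6 below, from Prss16 at 0.089 ± 0.068 (SE) to Cd1d1 at -0.22 ± 0.07. For 1 of the 10 (10%), Cd1d1, every Scnn1b-Tg array lay below every wild-type array, beside 4.41% of all genes. For 0 every one lay above, beside 6.26%. The thymic sums were not set against sums of other genes. Prss16 was 0.028 with Scnn1b-Tg replicate 2 left out and 0.13 with Scnn1b-Tg replicate 3 left out. Skeletal muscle markers, as of the oesophageal wall, summed to 348 to 361 in Scnn1b-Tg and 350.1 to 369.6 in wild type over 10 genes, from Myh2 at 0.052 ± 0.048 to Tnnt3 at -0.10 ± 0.09. Myh2 was 0.022 with Scnn1b-Tg replicate 3 left out and 0.085 with Scnn1b-Tg replicate 1 left out, and Tnnt3 was -0.19 with wild type replicate 1 left out and -0.031 with wild type replicate 3 left out. With limma 0 genes of either list were called (1 and 0 at an unadjusted p under 0.05, beside 6.01% of all genes). Among mesothelial markers Lrrn4 gave 0.25 ± 0.09 and Gpm6a -0.15 ± 0.09, which was -0.054 without wild type replicate 2.

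Of other lung epithelial types, the 12 ciliated cell genes ran from Dnah5 at 0.16 ± 0.11 (SE) to Tppp3 at -0.21 ± 0.12, with a median of 0.011. Dnah5 was 0.068 without wild type replicate 1 and 0.069 without Scnn1b-Tg replicate 3, and Tppp3 was -0.099 without wild type replicate 3. The 10 alveolar type 1 genes ran from Pdpn, which basal cells also express, at 0.13 ± 0.08 to Cav1 at -0.16 ± 0.07, and the 10 alveolar type 2 genes from Sftpa1 at 0.14 ± 0.10 to Lamp3 at -0.19 ± 0.12. Leaving out Scnn1b-Tg replicate 3 gave 0.062 for Pdpn and -0.094 for Cav1, leaving out wild type replicate 1 gave 0.061 for Sftpa1 and -0.29 for Lamp3, and leaving out wild type replicate 2 gave 0.24 for Sftpa1 and -0.081 for Lamp3. None of these genes was called by limma. At an unadjusted p under 0.05 there were 1 ciliated, 1 alveolar type 1 and 0 alveolar type 2 genes, beside 6.01% of all genes.

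Which members came apart depended on the array left out. Without wild type replicate 1, Krt4, Krt5 and Krt8 were lower on every Scnn1b-Tg array than on the remaining wild-type arrays, and without wild type replicate 2, Krt14 and Krt15 were higher on every one. Krt7 was higher in this way without wild type replicate 3, Krt18 without Scnn1b-Tg replicate 2 and Trp63 without Scnn1b-Tg replicate 3, and no member was separate without Scnn1b-Tg replicate 1. Of all genes 10.7% were lower in this way without wild type replicate 1, and 9.88% to 11.8% were higher in the settings that separated the other members. Krt34, a hair keratin named after its values were seen, was with Krt80 the other keratin whose Scnn1b-Tg arrays all lay above wild type, at 0.11 ± 0.05.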
